A study of Mus musculus with 9 samples.

Results

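The insulin-like growth factor (IGF) axis was examined at the ossification front (OF) of the mouse femur through 10 genes chosen by name: *Igf1*, the receptors *Igf1r* and *Igf2r*, the binding protein genes *Igfbp2* to *Igfbp7*, and the protease gene *Pappa*. They are 10 of the 39179 genes listed in each count table. The RNA came from laser-microdissected capillaries together with the cells around them, in juvenile mice aged 4 weeks (5 libraries) and adult mice aged 12 weeks (4 libraries). All mice were Tg(TIE2GFP)287Sato/J reporter animals of C57BL/6 origin, in which the Tie2 promoter drives GFP, and the GFP was used only to find the endothelial cells under the laser. Both ages carried the reporter, and no treatment is named for either. Each library is therefore a mixture of endothelial, perivascular and neighbouring bone cells, and fewer cells of a type and less RNA per cell cannot be told apart in it. The study describes the libraries as coming from different mice, and several dissected pieces were pooled in each. The labels name no animal and give no sex.

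IGF1 is made by the liver and by many local cells, bone cells among them, under the influence of growth hormone, and it supports the growth of the skeleton. It acts through IGF1R, a receptor tyrosine kinase that signals through IRS adaptors to PI3K and AKT, whereas IGF2R mainly binds and clears IGF2. The IGF-binding proteins (IGFBPs) hold IGFs outside the cell and limit or prolong their action, and IGFBP7 is a related secreted protein with low affinity for IGFs that is abundant in blood vessels. PAPPA cleaves IGFBP4 and so frees bound IGF, and the stanniocalcins STC1 and STC2 inhibit PAPPA.

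3 promoter sequences are shown first, because *Igfbp2* and *Igfbp4* are the members whose counts passed the test between the ages and *Igfbp7* is the member with the highest level. *Igfbp2* passed the filter on low counts through the juvenile libraries alone and so had to differ. Each run holds the 250 bases before the RefSeq transcript start on the GRCm38.p6 assembly, 5′ to 3′ on the strand of the gene, and capitals mark every match to the motifs searched. The *Igfbp2* promoter lies at chr1:72824230-72824479 on the plus strand, the *Igfbp4* promoter at chr11:99040994-99041243 on the plus strand, and the *Igfbp7* promoter at chr5:77408046-77408295 on the minus strand.
Igfbp2: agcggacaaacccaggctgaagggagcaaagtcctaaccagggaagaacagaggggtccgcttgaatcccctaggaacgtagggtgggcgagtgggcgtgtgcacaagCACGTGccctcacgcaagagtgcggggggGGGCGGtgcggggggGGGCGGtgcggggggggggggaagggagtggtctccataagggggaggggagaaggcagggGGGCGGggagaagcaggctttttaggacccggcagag
Igfbp4: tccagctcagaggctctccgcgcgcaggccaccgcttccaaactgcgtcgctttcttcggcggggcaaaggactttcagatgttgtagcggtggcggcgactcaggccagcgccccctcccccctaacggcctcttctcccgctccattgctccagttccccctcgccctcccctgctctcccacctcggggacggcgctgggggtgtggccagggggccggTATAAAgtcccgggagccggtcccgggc
Igfbp7: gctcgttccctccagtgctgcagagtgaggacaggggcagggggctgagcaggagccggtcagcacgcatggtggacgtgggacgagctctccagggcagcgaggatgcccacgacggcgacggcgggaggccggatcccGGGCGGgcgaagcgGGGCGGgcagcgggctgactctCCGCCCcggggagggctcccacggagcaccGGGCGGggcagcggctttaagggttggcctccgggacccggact

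The motifs searched, on both strands, were the TATA box (TATAAA), the GC box (GGGCGG), the CCAAT box (CCAAT), the E-box (CACGTG), the AP-1 site (TGANTCA), the CRE (TGACGTCA) and a FOXO site (TGTTTAC). The *Igfbp4* window held 1 TATA box, from 28 to 23 bases before the start, and no other motif of the set. A TATA box was present in 12.4% of the 32851 promoter windows of the same length. The *Igfbp2* window held 3 GC boxes and 1 E-box, and the *Igfbp7* window held 4 GC boxes. A GC box was present in 32.7% of all windows and an E-box in 6.02%. The 3 windows were rich in G and C, at 67.2% for *Igfbp2*, 69.2% for *Igfbp4* and 74.0% for *Igfbp7*. RefSeq gives *Igfbp2* another start further downstream, whose window held 1 AP-1 site. These matches describe the letters only, since binding was not measured.

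The libraries held between 4856833 and 8077362 counts. Levels are given as CPM, the share of a library's reads scaled to a common total and adjusted by TMM, with the SD over the libraries of an age, and 3 counts were taken as the least a library can show, which is 0.347 to 0.638 CPM. PCR copies without molecular identifiers are not independent molecules, so this floor covers counting error only. Age differences are log2 fold changes of juvenile over adult from the quasi-likelihood test of edgeR, and a gene was called at a Benjamini-Hochberg adjusted p under 0.05 over all 13418 genes tested. Of those genes 3.88% were called, 1.99% with higher levels in juvenile and 1.89% in adult libraries. Reads of the Y-linked gene *Ddx3y* numbered 524 and 439 in juvenile replicates 4 and 5, 1 in adult replicate 4 and 0 in the other libraries, so sex was not balanced between the ages. *Xist*, a gene read in females, had 11 and 1 counts in juvenile replicates 4 and 5 and 2965 to 6598 in the other libraries. In the marker lists, all 12 endothelial genes were tested and none was called, whereas 6 of 12 osteoblast genes were called higher in juvenile and 2 higher in adult libraries. No endothelial or osteoblast marker was at 0 in all libraries.

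**Figure D1:**
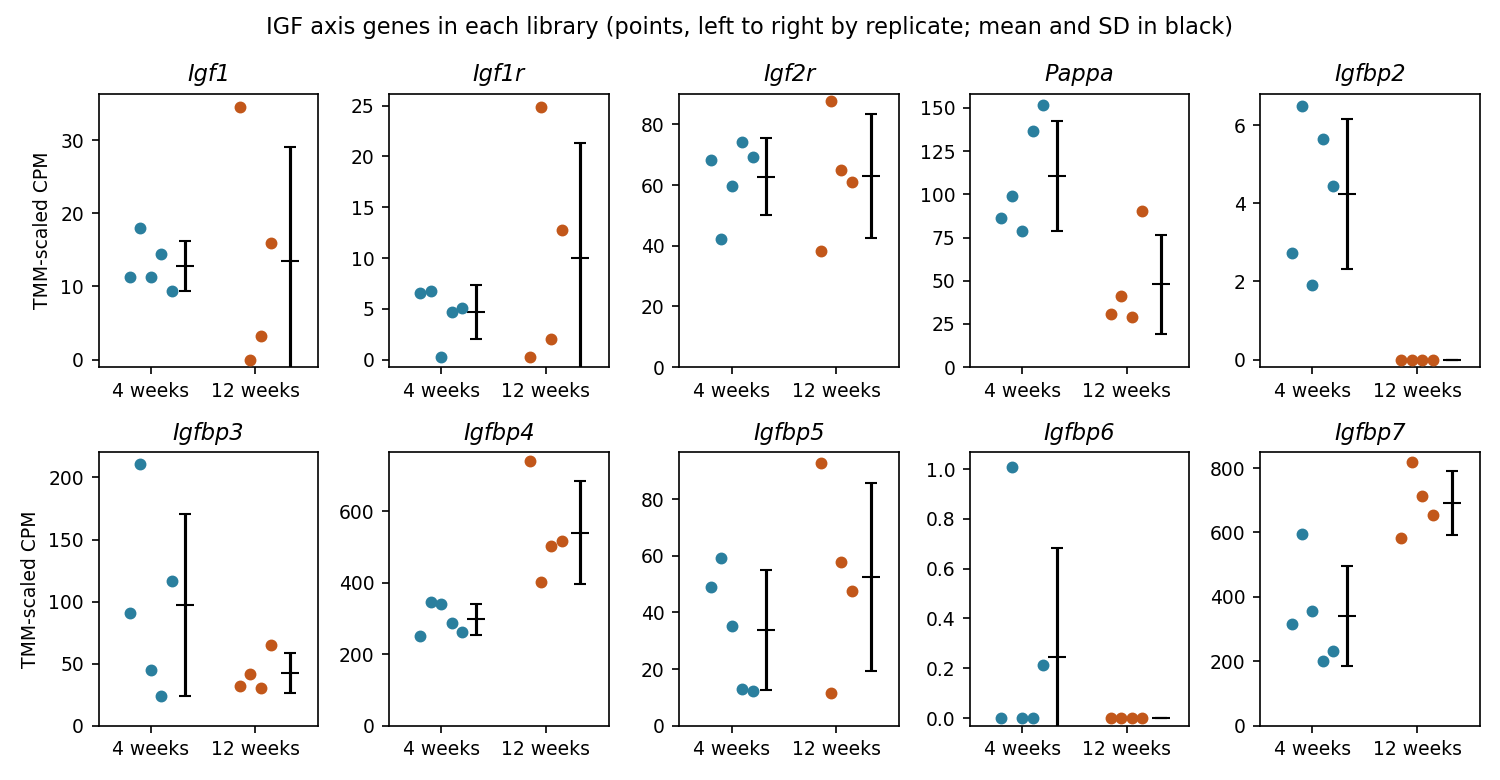
Level of each of the 10 IGF axis genes in every library, in TMM-scaled CPM on linear axes that differ between panels. Points are libraries in replicate order, and the black mark and bar are the mean and SD of the age, with bars that would pass below 0 left out there. The juvenile and adult points stand apart for *Igfbp2* and *Igfbp4* and overlap for the other genes.

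The ligand gene *Igf1* (ENSMUSG00000020053, chr10:87858265-87937042, plus strand, GRCm38) had nearly the same mean at both ages, and its adult libraries were widely scattered. The 5 juvenile libraries held 62, 125, 53, 77 and 44 counts, or 11.2, 18.0, 11.3, 14.5 and 9.33 CPM in replicate order. The 4 adult libraries held 299, 0, 26 and 127 counts, or 34.6, 0, 3.22 and 15.9 CPM. The adult libraries thus enclosed the whole juvenile range, with the highest and the lowest library of the series among them. The means were 12.9 ± 3.41 CPM (SD, n = 5) and 13.4 ± 15.7 CPM (SD, n = 4). The log2 fold change was -0.06 ± 0.97 (SE, edgeR adjusted p = 0.988), with a 95% confidence interval from -2.16 to 2.03. A change of several fold in either direction thus lies within that interval.

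The cell content of the adult libraries was not even either. The macrophage markers had a mean log2 CPM of 6.21, 2.20, 5.06 and 6.24 in adult replicates 1 to 4, and of 2.11 to 3.75 in juvenile libraries. The adult library without an *Igf1* read had the lowest value of the adult libraries, whereas the juvenile library with the lowest value, replicate 2, had the highest juvenile *Igf1* level. The same adult library stood apart in chondrocyte markers, with a mean log2 CPM of 7.15 against 1.25 to 4.10 in the other adult libraries. It was also the lowest adult library for pericyte and smooth muscle (3.35), Cxcl12-abundant stroma (4.34), neutrophil (2.14) and B cell markers (-0.44). For endothelial markers it was the highest adult library, at 6.15. Of the leading macrophage genes given next, *Csf1r* varied little among the adult libraries. Over the whole macrophage list the summed level was 489 to 827 CPM in juvenile and 1105 to 1836 CPM in adult libraries, 2 of 9 genes were called, both higher in adult, and no marker was at 0 throughout. The leading genes were *Csf1r*, the receptor for macrophage colony-stimulating factor, at 324 ± 52.3 CPM in juvenile (SD, n = 5) and 662 ± 54.6 CPM in adult libraries (SD, n = 4), and the lysosomal gene *Cd68*, at 300.2 ± 97.5 CPM (SD, n = 5) and 438 ± 87.9 CPM (SD, n = 4). Of the 7 chondrocyte genes tested, 1 was called higher in juvenile and 2 in adult libraries, and the summed level was 2004 to 2745 CPM in juvenile and 1674 to 5571 CPM in adult libraries, with no marker at 0 throughout. The leading chondrocyte genes were the cartilage collagen genes *Col11a1*, at 2152 ± 367 CPM in juvenile (SD, n = 5) and 1215 ± 312 CPM in adult libraries (SD, n = 4), and *Col2a1*, at 207 ± 72.7 CPM (SD, n = 5) and 1273 ± 1238 CPM (SD, n = 4). The part of these cells in the *Igf1* values was not tested.

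The other ligands were scarce. *Igf2*, the fetal growth factor that also binds IGF1R, had 0, 4, 14, 9 and 3 counts in juvenile and 97, 1, 114 and 43 counts in adult libraries. Adult replicate 2 was again low, and the ranges of the ages overlapped. The log2 fold change of *Igf2* was -2.71 ± 1.20 (SE), which did not pass the test (edgeR adjusted p = 0.263). *Ins1* and *Ins2*, the insulin genes, had 0 counts in every library, and so had the binding protein genes *Igfbp1* and *Igfbpl1*. *Igfals*, whose product holds IGF1 and IGFBP3 in a ternary complex in blood, had 0 counts in 4 libraries and between 21 and 59 in the other 5.

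The receptor gene *Igf1r* (ENSMUSG00000005533, chr7:67952827-68233668, plus strand) had low and uneven counts. The juvenile libraries held 36, 47, 1, 25 and 24 counts and the adult libraries 2, 149, 16 and 102 counts. In CPM the juvenile libraries stood at 6.53, 6.77, 0.213, 4.69 and 5.09 and the adult libraries at 0.231, 24.9, 1.98 and 12.8. Juvenile replicate 3 and adult replicate 1 were under the floor of 3 counts, and the highest adult library was the one without *Igf1* reads. The means were 4.66 ± 2.64 CPM (SD, n = 5) and 9.97 ± 11.4 CPM (SD, n = 4), and the log2 fold change was -1.09 ± 1.09 (SE, edgeR adjusted p = 0.704).

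*Igf2r* (ENSMUSG00000023830, chr17:12682406-12769664, minus strand), the clearance receptor for IGF2, was read evenly at both ages. Its juvenile levels were 68.3, 42.1, 59.6, 74.1 and 69.3 CPM and its adult levels 38.1, 87.7, 65.1 and 60.9 CPM. The ranges overlapped almost entirely, and adult replicates 1 and 2 were the lowest and highest of the series. The means of 62.7 ± 12.7 CPM (SD, n = 5) and 62.9 ± 20.3 CPM (SD, n = 4) gave a log2 fold change of -0.01 ± 0.27 (SE, edgeR adjusted p = 0.996). The 95% confidence interval of this difference ran from -0.59 to 0.58.

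Among the binding proteins, *Igfbp2* (ENSMUSG00000039323, chr1:72824503-72852474, plus strand) was found in every juvenile and in no adult library. The juvenile libraries held 15, 45, 9, 30 and 21 counts, or 2.72, 6.48, 1.92, 5.63 and 4.45 CPM. The 4 adult libraries held 0 counts among 28881323 in all, so the ages did not overlap. *Igfbp2* encodes a binding protein that sequesters IGFs and is made by osteoblasts and stromal cells among others. With the adult level set at 3 counts, which is at most 0.501 CPM in a library of that age, the juvenile mean of 4.24 ± 1.92 CPM (SD, n = 5) was at least 8.46-fold higher. The gene passed the test (edgeR adjusted p = 0.0134), but it passed the filter on low counts through the juvenile libraries alone and so had to differ. Its counts are few beside those of *Igfbp3*, *Igfbp4*, *Igfbp5* and *Igfbp7*, and only *Igfbp6* among the binding protein members had fewer. Without juvenile replicates 4 and 5, which held nearly all Y-linked reads, the adjusted p was 0.111, although *Igfbp2* remained at 0 in all adult libraries and above the floor in the 3 juvenile ones. With these fewer libraries the calls over all genes fell from 520 to 73.

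*Igfbp4* (ENSMUSG00000017493, chr11:99041244-99054392, plus strand), a binding protein that mostly inhibits IGF action until PAPPA cleaves it, was higher in adult libraries. The juvenile levels were 251, 346, 341, 288 and 263 CPM, from 1239 to 2402 counts. The adult levels were 742, 401, 502 and 518 CPM, from 2402 to 6417 counts. Every adult library was above every juvenile one, and adult replicate 1 was the highest. The means were 298 ± 44.1 CPM (SD, n = 5) and 541 ± 144 CPM (SD, n = 4), 1.82-fold higher in adult, with a log2 fold change of -0.86 ± 0.19 (SE, edgeR adjusted p = 0.0267). The log2 fold change was -0.79 without juvenile replicates 4 and 5, where the adjusted p of 0.196 no longer passed the test.

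The *Igfbp4* difference was also expressed relative to marker genes of 3 cell types, an alternative chosen after the data were seen. There were 27 such comparisons, 9 members with 3 marker lists, and their p-values are not adjusted. Relative to the mean of the endothelial markers, *Igfbp4* was lower in juvenile libraries by a log2 difference of -0.93 (two-sided exact permutation p = 0.0317). Relative to the mean log2 CPM of the osteoblast markers, the difference was -1.25 (exact permutation p = 0.00794, the smallest these libraries can give). That mean was 10.8 to 10.9 in juvenile and 10.1 to 10.7 in adult libraries. The summed level was 171341 to 213129 CPM in juvenile and 63404 to 93904 CPM in adult libraries. It was led by the collagen genes *Col1a2*, at 82107 ± 9614 CPM in juvenile (SD, n = 5) and 34403 ± 6319 CPM in adult libraries (SD, n = 4), and *Col1a1*, at 75812 ± 7801 CPM (SD, n = 5) and 29303 ± 4608 CPM (SD, n = 4). Relative to the markers of Cxcl12-abundant stroma, it was -0.06 (exact permutation p = 0.825). The stromal markers had summed levels of 312 to 478 CPM in juvenile and 429 to 1203 CPM in adult libraries, 1 of 8 genes was called in each direction, and no marker was at 0 in all libraries. *Cxcl12*, a chemokine of marrow stroma, stood at 98.8 ± 34.7 CPM in juvenile (SD, n = 5) and 596 ± 287 CPM in adult libraries (SD, n = 4), and *Lpl*, lipoprotein lipase, at 80.6 ± 43.3 CPM (SD, n = 5) and 130.5 ± 63.2 CPM (SD, n = 4). The rise of the sum lay in *Cxcl12*, the marker called higher in adult libraries. The marker called higher in juvenile libraries was *Lepr*, the leptin receptor gene, at 142 CPM in juvenile and 39.8 CPM in adult libraries, so the stromal list did not move as one. The part of stroma in the *Igfbp4* result was not tested.

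Neutrophil and erythroid markers were also higher in adult libraries, beside *Igfbp4* and *Igfbp7*. Of 9 tested neutrophil genes 8 were called, all higher in adult, with summed levels of 13.1 to 77.0 CPM in juvenile and 103 to 4437 CPM in adult libraries. Their leading genes *S100a8* and *S100a9* stood at 5.17 ± 6.70 and 7.86 ± 11.4 CPM in juvenile (SD, n = 5) and at 959 ± 625 and 807 ± 523 CPM in adult libraries (SD, n = 4). All 8 tested erythroid genes were called higher in adult libraries, where the sum was 4716 to 37038 CPM against 419 to 2555 CPM in juvenile ones. These were led by the globin genes *Hbb-bs*, at 403 ± 375 CPM in juvenile (SD, n = 5) and 7066 ± 6899 CPM in adult libraries (SD, n = 4), and *Hba-a1*, at 371 ± 341 CPM (SD, n = 5) and 4678 ± 5207 CPM (SD, n = 4). Of 9 osteoclast genes 3 were called, all higher in adult, and the summed levels of 13269 to 21686 CPM in juvenile and 17119 to 26297 CPM in adult libraries overlapped. The leading osteoclast genes were *Acp5*, at 7188 ± 836 CPM in juvenile (SD, n = 5) and 13248 ± 2129 CPM in adult libraries (SD, n = 4), and *Mmp9*, at 5018 ± 1445 CPM (SD, n = 5) and 4601 ± 1181 CPM (SD, n = 4). Of the other blood lists, none of 6 tested B cell genes was called. Of 3 tested megakaryocyte genes 1 was called, higher in adult libraries. The summed levels of both lists overlapped between the ages. No marker of these lists was at 0 in all libraries, and the part of these cells in the results was not tested.

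*Igfbp7* (ENSMUSG00000036256, chr5:77349240-77408041, minus strand) was the binding protein gene with the most reads. The juvenile levels were 316, 595, 355, 202 and 230 CPM and the adult levels 584, 818, 712 and 654 CPM. Juvenile replicate 2 lay just above the lowest adult library, and the other 4 juvenile libraries were below all adult ones. The means were 340 ± 155 CPM (SD, n = 5) and 692 ± 99.1 CPM (SD, n = 4), a log2 fold change of -1.03 ± 0.27 (SE), which narrowly missed the test (edgeR adjusted p = 0.0554). Without juvenile replicate 2 the log2 fold change was -1.33 and the adjusted p 0.00813. Without juvenile replicates 4 and 5 it was -0.71, with an adjusted p of 0.260. Juvenile replicates 4 and 5 held nearly all Y-linked reads and were the lowest for *Igfbp7*. The fit without them compared the ages among *Xist*-rich libraries only. The part of sex in the difference over all libraries was not tested. The *Igfbp7* call moved with the juvenile libraries counted, and without replicates 4 and 5 the calls over all genes fell from 520 to 73. It also moved with the test and the filter. Of 9 alternatives other than leaving out a single library, 4 called *Igfbp7*, each with all 9 libraries. They were DESeq2 (adjusted p = 0.00567), limma with voom (adjusted p = 0.0254), and edgeR without a filter on low counts (adjusted p = 0.0475) or with at least 10 counts in every library (adjusted p = 0.0150).

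Relative to the endothelial markers, whose summed level was 715 to 1079 CPM in juvenile and 901 to 1093 CPM in adult libraries, *Igfbp7* was lower in juvenile libraries by -1.22 on the log2 scale (exact permutation p = 0.0159). In this measure the ages did not overlap. The leading endothelial genes, *Egfl7* and the VEGF receptor gene *Kdr*, stood at 221 ± 33.2 and 113 ± 37.9 CPM in juvenile (SD, n = 5) and at 234 ± 21.4 and 116 ± 22.3 CPM in adult libraries (SD, n = 4). Relative to the osteoblast markers the difference in *Igfbp7* was -1.53 without overlap (exact permutation p = 0.0159), and relative to the stromal markers it was -0.35 (exact permutation p = 0.476). Exons of *Igfbp7* share 85 bases with *Polr2b* on the opposite strand, and the protocol does not mark strand. *Polr2b* had 8290 counts over the 9 libraries against 30631 for *Igfbp7*, and the reads in the shared bases cannot be told apart.

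*Igfbp3* (ENSMUSG00000020427, chr11:7206086-7213923, minus strand), the main carrier of IGF1 in blood, varied widely among the juvenile libraries. The juvenile levels were 90.6, 211, 44.7, 24.0 and 116 CPM and the adult levels 32.1, 41.8, 30.2 and 64.9 CPM. Juvenile replicate 4 was the lowest of the series and juvenile replicate 2 the highest, so the adult range lay inside the juvenile one. The means were 97.4 ± 73.3 CPM (SD, n = 5) and 42.2 ± 15.9 CPM (SD, n = 4), and the log2 fold change of 1.21 ± 0.51 (SE) did not pass the test (edgeR adjusted p = 0.234). Relative to stromal, endothelial and osteoblast markers the log2 difference was 1.67, 0.80 and 0.48 (unadjusted exact permutation p = 0.0397, 0.206 and 0.492). The ages overlapped in each.

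*Igfbp5* (ENSMUSG00000026185, chr1:72857932-72874884, minus strand), a binding protein that adheres to bone matrix, was scattered at both ages. The juvenile levels were 49.1, 59.1, 35.3, 13.0 and 12.3 CPM and the adult levels 92.6, 11.7, 57.8 and 47.6 CPM. Juvenile replicates 4 and 5 and adult replicate 2 formed the low end, and the ranges overlapped. The means were 33.8 ± 21.1 CPM (SD, n = 5) and 52.4 ± 33.3 CPM (SD, n = 4), with a log2 fold change of -0.63 ± 0.57 (SE, edgeR adjusted p = 0.654). *Igfbp5* lies 5457 bases from *Igfbp2*, tail to tail on the same chromosome.

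*Igfbp6* (ENSMUSG00000023046, chr15:102144362-102149511, plus strand), a binding protein that prefers IGF2, was barely detected. It had 7 counts in juvenile replicate 2, 1 count in juvenile replicate 5 and 0 counts in the other 7 libraries. It did not pass the filter on low counts, and no fold is given because the juvenile mean of 0.244 CPM is under the floor and the adult libraries are at 0. On log2 CPM the ages gave a two-sided exact permutation p of 0.444.

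*Pappa* (ENSMUSG00000028370, chr4:65124174-65357509, plus strand), the protease that cleaves IGFBP4, had its higher levels in juvenile libraries. They stood at 86.3, 99.3, 79.0, 137 and 152 CPM, and the adult libraries at 31.0, 41.4, 29.2 and 90.3 CPM. Adult replicate 4 was inside the juvenile range, and the other 3 adult libraries were below it. The means were 111 ± 32.0 CPM (SD, n = 5) and 48.0 ± 28.7 CPM (SD, n = 4), and the log2 fold change of 1.20 ± 0.35 (SE) did not pass the test (edgeR adjusted p = 0.0791). Without adult replicate 4 the log2 fold change was 1.69 and the adjusted p 0.0135. Without juvenile replicates 4 and 5, the highest for *Pappa*, they were 0.88 and 0.441. Those 2 juvenile libraries held nearly all Y-linked reads, so the fit without them compared the ages among *Xist*-rich libraries only. The part of sex in the difference over all libraries was not tested. Relative to the stromal markers *Pappa* was higher in juvenile libraries by 2.08 on the log2 scale without overlap (exact permutation p = 0.00794), relative to the endothelial markers by 1.22 (exact permutation p = 0.0635) and relative to the osteoblast markers by 0.90 (exact permutation p = 0.127).

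Of the 10 members 9 were tested, 1 was called higher in juvenile and 1 higher in adult libraries. Of all tested genes 3.88% were called, 1.99% with juvenile higher and 1.89% with adult higher. The members whose ages did not overlap were the same pair, *Igfbp2* and *Igfbp4*, beside a background of 9.15% of all tested genes, 5.07% with juvenile higher and 4.08% with adult higher. At an unadjusted p under 0.05, 5 of the 9 passed, against 17.3% of all tested genes. These counts include *Igfbp2*, which could pass the filter only by differing.

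Levels of different genes were compared per kilobase of exon, in CPM per kb. *Igfbp7* led at both ages, at 281 in juvenile and 572 in adult libraries, followed by *Igfbp4* at 67.4 and 122 and *Igfbp3* at 31.1 and 13.5. The ranges of *Igfbp7* and *Igfbp4* were apart at both ages, and those of *Igfbp4* and *Igfbp3* were apart in adult libraries only. *Pappa* was the fourth in juvenile libraries at 10.0 and the sixth in adult ones at 4.35. *Igf2r*, at 6.74 and 6.76, and *Igfbp5*, at 5.62 and 8.73, had ranges that overlapped with each other. The lowest levels were those of *Igfbp2* at 2.30 and 0, *Igf1* at 1.30 and 1.36, *Igf1r* at 0.277 and 0.594, and *Igfbp6*. In all 5 juvenile libraries *Igf1* was above *Igf1r*, with ranges apart, whereas this held in 3 of 4 adult libraries.

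**Figure D2:**
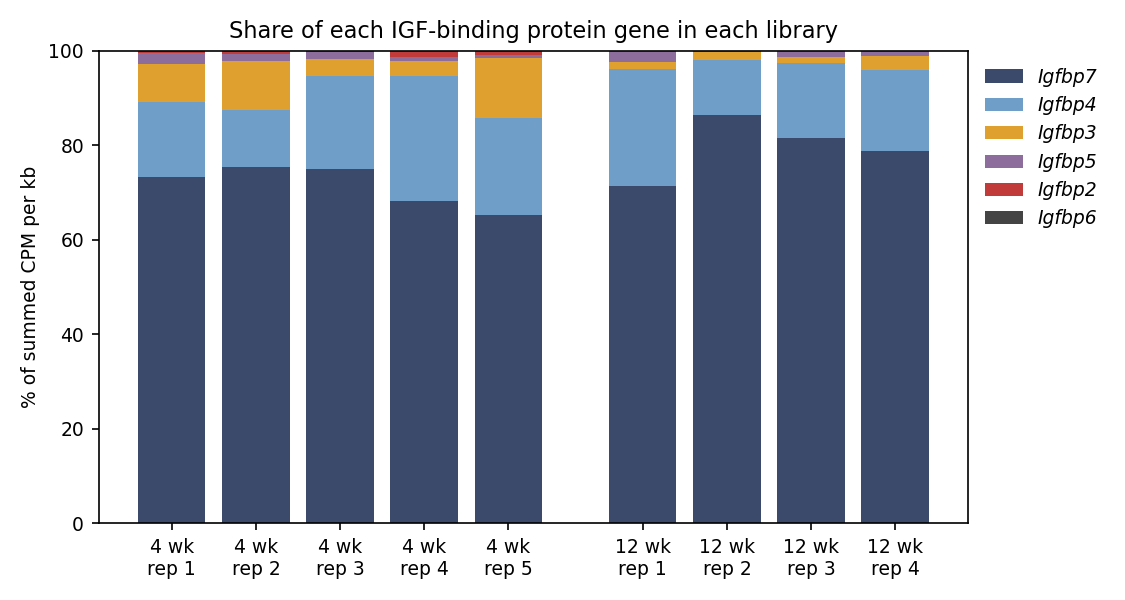
Share of each binding protein gene in the summed level of *Igfbp2* to *Igfbp7*, in percent of CPM per kb, for each of the 9 libraries. *Igfbp7* takes the largest part of every bar, and the part of *Igfbp3* is 3.13% to 12.7% in juvenile and 1.34% to 3.02% in adult libraries.

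The summed level of the 6 binding protein genes was 388 ± 158 CPM per kb in juvenile (SD, n = 5) and 717 ± 48.0 CPM per kb in adult libraries (SD, n = 4). The juvenile libraries spanned 245 to 652 and the adult ones 677 to 783, so the ages did not overlap. Within this sum *Igfbp7* had a share of 71.4% ± 4.45 in juvenile (SD, n = 5) and 79.5% ± 6.30 in adult libraries (SD, n = 4). *Igfbp4* held 18.9% ± 5.42 and 17.3% ± 5.52, a difference smaller than the spread between libraries, although its level differed between the ages. *Igfbp3* held 7.60% ± 4.18 and 1.89% ± 0.765, and each juvenile share was narrowly or well above every adult one. The lowest juvenile share was 3.13%, in replicate 4, and the highest adult share was 3.02%. That juvenile library had the lowest *Igfbp3* level of the series, at 24.0 CPM, and also the lowest *Igfbp7* level, at 202 CPM. The *Igfbp3* levels themselves overlapped between the ages. *Igfbp5* held 1.38% ± 0.628 and 1.25% ± 0.832, and *Igfbp2* 0.657% ± 0.387 in juvenile libraries. The shares add to a fixed total and are a description, without a test.

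**Figure D3:**
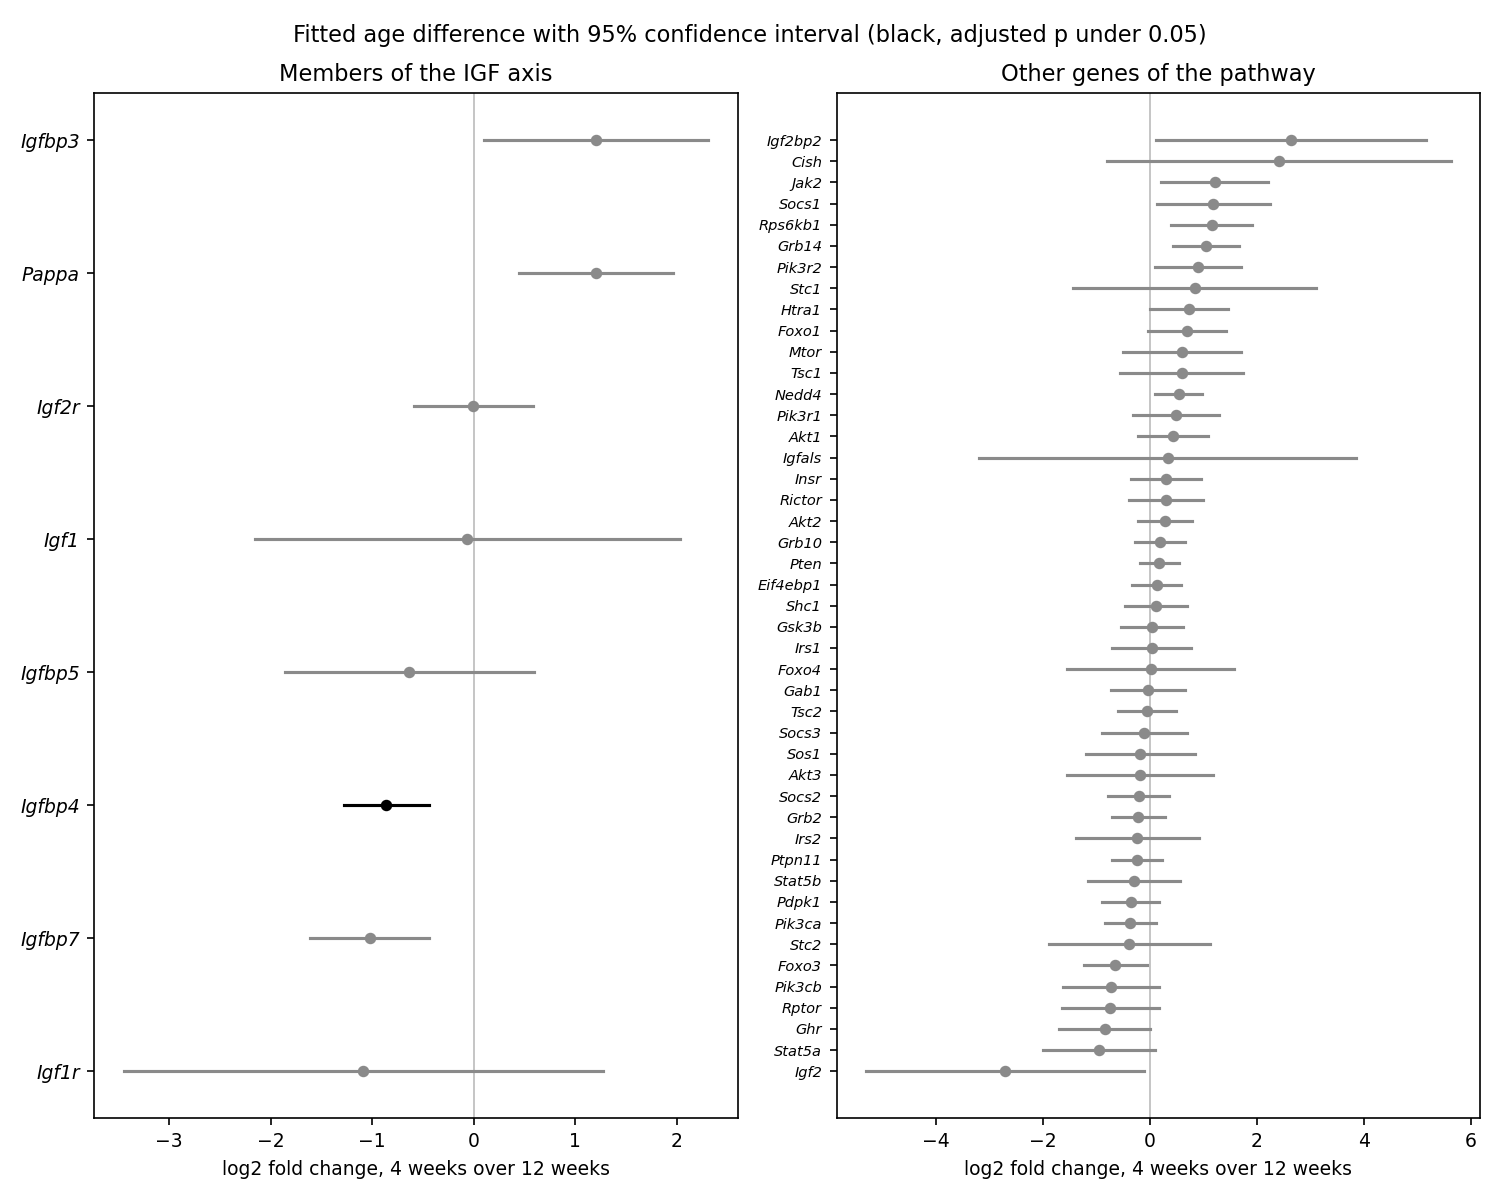
Fitted log2 fold change of juvenile over adult libraries for 8 members and 45 other pathway genes, with 95% confidence intervals. *Igfbp2* is not drawn, because its fitted value against adult libraries at 0 depends on the prior count. The interval of *Igfbp4*, in black, is the one with an adjusted p under 0.05.

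A list of 52 other genes of the pathway was read in the same way, and 45 of them were tested. None was called by edgeR. An unadjusted p under 0.05 was found for 9 of the 45, near the 17.3% of all tested genes, and the median log2 fold change was 0.11, beside -0.01 over all tested genes. DESeq2 gave an adjusted p to 46 of the listed genes and called 2, against 9.61% of all genes. They were *Grb14* and *Rps6kb1*, which are named here after their values were seen. *Grb14*, an adaptor that inhibits the insulin receptor, stood at 70.1 ± 22.1 CPM in juvenile (SD, n = 5) and 34.0 ± 6.98 CPM in adult libraries (SD, n = 4), with an edgeR adjusted p of 0.0628. *Rps6kb1*, the S6 kinase downstream of mTOR, stood at 149.5 ± 28.5 CPM (SD, n = 5) and 67.0 ± 33.1 CPM (SD, n = 4), with an edgeR adjusted p of 0.0875. For both genes the ages did not overlap, as for 3 pathway genes with juvenile higher and 1 with adult higher in all, a share near the 9.15% of all tested genes.

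Of the other receptors and adaptors, the best known had intervals that spanned 0. *Insr*, the insulin receptor gene, had a log2 fold change of 0.31 ± 0.30 (SE, edgeR adjusted p = 0.697). The docking protein genes *Irs1* and *Irs2* had log2 fold changes of 0.04 ± 0.34 and -0.23 ± 0.53 (SE, edgeR adjusted p = 0.979 and 0.896). Exons of *Irs1* share 2822 bases with *Gm9747* on the opposite strand, which had 4278 counts over the libraries against 4880 for *Irs1*. Since the protocol does not mark strand, the reads in these bases cannot be told apart. All 11 genes of this group were tested, and their log2 fold changes ran from -0.24 to 1.04. Of the 20 genes of PI3K, AKT, mTOR and FOXO, all were tested, and 3 had an unadjusted p under 0.05, a share no higher than the 17.3% of all tested genes.

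Of the protease group, *Pappa2*, a relative of *Pappa* that cleaves IGFBP5 and IGFBP3, had no more than 1 count in a library. *Stc1*, an inhibitor of PAPPA, had 35, 51, 35, 84 and 18 counts in juvenile and 65, 0, 10 and 75 in adult libraries, with a log2 fold change of 0.84 ± 1.05 (SE, edgeR adjusted p = 0.777). *Stc2*, the other inhibitor, had 58, 202, 63, 94 and 32 counts and 133, 258, 167 and 14 counts, with -0.38 ± 0.70 (SE, edgeR adjusted p = 0.862). Both overlapped between the ages. The growth hormone receptor gene *Ghr* stood at 25.3 ± 7.89 CPM in juvenile (SD, n = 5) and 45.4 ± 22.4 CPM in adult libraries (SD, n = 4), a log2 fold change of -0.84 ± 0.39 (SE, edgeR adjusted p = 0.296).

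**Figure D4:**
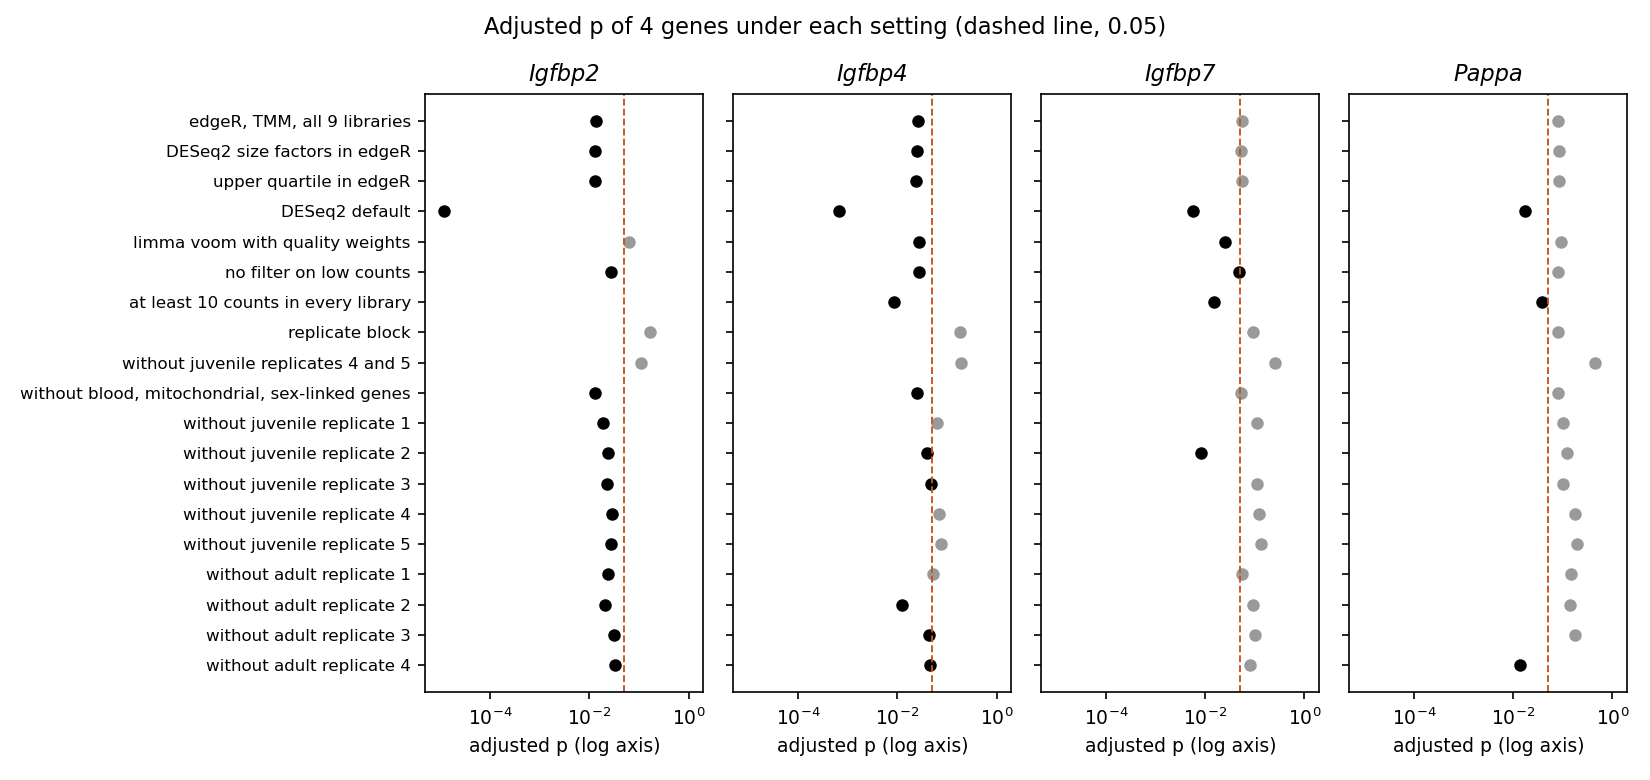
Adjusted p of *Igfbp2*, *Igfbp4*, *Igfbp7* and *Pappa* in the reported test and under each alternative, on a log axis, with the threshold of 0.05 dashed. Black points are under the threshold. *Igfbp2* has no point where every library had to hold at least 10 counts.

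The calls of the 4 genes with the smallest p among the members moved with the choice of libraries and test. When each library was left out in turn, *Igfbp4* was called in 5 of 9 fits. Over the 9 fits its log2 fold change was nearest to 0 at -0.69, without adult replicate 1, and its adjusted p ran from 0.0128 to 0.0754. The *Igfbp4* call was lost without juvenile replicate 1, 4 or 5 or adult replicate 1. *Igfbp7* and *Pappa* were each called in 1 of 9. *Igfbp2* was called in 9 of 9, which says nothing of stability, since with all adult libraries at 0 it could be tested only where it differed. DESeq2 called all 4 genes, beside 9.61% of the 15529 genes to which it gave an adjusted p, and limma with voom called *Igfbp4* and *Igfbp7*. The direction of these 4 genes was the same in every alternative fit in which they were tested.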

How the data were processed

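The authors prepared libraries with the SMART-Seq v4 kit, which does not mark strand, and deposited raw counts per gene, 1 table per library, without normalization. Per the labels, reads were mapped with TopHat2 and Bowtie2 to GRCm38 (mm10) and counted with featureCounts; the counting settings and annotation release are not given in the sources used here. Symbols, positions and exon lengths came from the GENCODE annotation of GRCm38, which held 37693 of the 39179 identifiers. Promoters came from RefSeq, which gave an entry for 9 of the 10 members. Protein sequences were not used here.

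Groups and replicate numbers came from the labels. Genes were kept with filterByExpr, scaled by TMM and compared with the quasi-likelihood test of edgeR 4.0.16 under R 4.3.3, without covariates. Single values were compared with two-sided exact permutation tests, on log2 CPM with a prior count of 2. Alternatives were DESeq2 1.42.0, limma 3.58.1 with voom, other scalings and filters, a replicate block, and leaving out libraries. No 2 of the 36 library pairs were copies.

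The members and lists were chosen with earlier results of these data known. Named genes were all members, every pathway gene that was called, 10 pathway genes fixed by name, and the 3 genes most like *Igf1* and each called member. The 2 most abundant genes of most marker lists given beside a member were named as well. *Ins1*, *Ins2*, *Igfbpl1*, *Lepr*, *Grb14* and *Rps6kb1* were named outside this rule. *Grb14* and *Rps6kb1* were not called in the reported fit and were named after their values were seen. Genes named for sex or for shared exons were outside it too.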

Additional observations from a re-analysis of the deposited data

Results flagged for a closer look

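In 18 groups of one gene at one age, 1 library stood far from the others of its age, where 0.9 would be expected by chance. It was juvenile replicate 2 for *Igfbp6*, at 1.01 CPM, with the other juvenile libraries between 0 and 0.212 CPM. Its gap to the nearest library was 0.790 of the whole range, and the value rests on 7 counts.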

How the results depend on the processing

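The reported fit called 2 of the 9 tested members, beside 3.88% of all tested genes. That count includes *Igfbp2*, which could pass the filter on low counts only by differing. DESeq2 called 4, and 0 were called with the replicate block or without juvenile replicates 4 and 5. Leaving out each library in turn gave 1 to 3. The replicate block gave adjusted p values of 0.164 for *Igfbp2*, 0.182 for *Igfbp4*, 0.0920 for *Igfbp7* and 0.0801 for *Pappa*. Deviations of libraries with the same number correlated between -0.03 and 0.03. For juvenile replicates 1, 3 and 4 the adult library most like them carried the same number. Whether the numbers pair the libraries cannot be settled from these values. The block lowered the calls over all genes from 520 to 89. Without juvenile replicates 4 and 5 that count was 73, without each library in turn 262 to 651, and with DESeq2 1492. Pathway genes called rose from 0 to 2 with DESeq2 and to 2 where each library had to hold at least 10 counts.

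The differences close to 0 changed sign. *Igf1* gave 2.07 with limma voom, 1.14 with the replicate block, 0.011 without juvenile replicates 4 and 5, and -0.50 to 0.99 when a library was left out. *Igf2r* gave -0.20 to 0.18 when a library was left out. Relative to endothelial, osteoblast and stromal markers, added after the data were seen, *Igf1* gave 1.27, 0.95 and 2.14. Relative to stromal markers *Igf1r* gave 0.49, *Igf2r* 0.80 and *Igfbp5* 0.19. None of these passed a test, and the cause was not tested. With Spearman in place of Pearson, the first 3 genes most like each member kept 0 for *Igf1*, 1 for *Igfbp2* and 1 for *Igfbp4*. Depth limits *Igfbp2*, *Igfbp6*, *Igf1* and *Igf1r*, which have libraries at or under 3 counts.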

Other observations

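The genes whose levels followed those of a member most closely were sought among 9936 genes with a mean of at least 10 CPM. Likeness was the Pearson correlation, over the 9 libraries, of the log2 CPM after the mean of each age was taken off. For *Igf1* they were *Fam78b* (0.99), *Zfp598* (0.99) and *Zhx3* (0.97). For *Igfbp2* they were *Ugcg* (0.93), *Ccdc86* (0.91) and *Ssh2* (0.91), values that rest on the 5 juvenile libraries, because the 4 adult ones were all at 0 counts. For *Igfbp4* they were *Zfp346* (0.94), *Tusc3* (0.94) and *Rbmxl1* (0.94). The points share the same libraries and depth, they are the closest of all genes compared, and the values are a description.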
